A study of Mus musculus with 10 samples.

Results

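A set of 8 genes whose products mark the epithelium of the bile ducts, 8 of the 25233 entries with a gene symbol in the deposited table, was followed in purified hepatic stellate cell preparations of the mouse: the keratins Krt7, Krt8, Krt18 and Krt19, the adhesion molecules Epcam and Cdh1, the transcription factor Sox9 and the chloride channel Cftr. The genes were chosen by symbol, each as an exact match to one entry, and the rule itself used no measured value. Bulk RNA-seq had been made from 5 preparations of hypertrophied hepatic stellate cells (hypHSCs) and 5 of quiescent hepatic stellate cells (qHSCs), all from livers of male C57BL/6J mice without genetic modification. The hypHSCs came from mice fed the CDAHFD, a choline-deficient, L-amino acid-defined, high-fat diet that produces steatohepatitis and fibrosis, for 13 weeks at an age of 19 weeks (hypHSC 1 and 2) or for 12 weeks at an age of 18 weeks (hypHSC 3, 4 and 5). The qHSCs came from mice on a standard diet at an age of 36 weeks (qHSC 1, 2 and 5) or 34 weeks (qHSC 3 and 4). Both cell types were obtained by enzymatic dissociation of the liver, a density gradient and fluorescence sorting on their own fluorescence, without antibodies, with hypHSCs gated on an additional green signal, and the preparations sequenced had been selected for RNA quality. Diet, age, dissociation and gate differed together between the groups and cannot be told apart.

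Cholangiocytes are the epithelial cells that line the bile ducts. Their intermediate filaments are built from pairs of a type II keratin (Krt7, Krt8) and a type I keratin (Krt18, Krt19). Hepatocytes make Krt8 and Krt18 but in healthy liver little or no Krt7 and Krt19, so the latter pair is used to recognise ducts and the ductular reaction of injured liver. Cdh1 (E-cadherin) and Epcam hold epithelial cells together, Sox9 is a transcription factor of duct formation that is also found in hepatic progenitor cells, and Cftr is the apical channel through which chloride leaves cholangiocytes into bile. Stellate cells are mesenchymal cells, and these genes are not among the ones by which they are recognised.

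The libraries held 30534719 to 43283589 reads on entries with a symbol in hypHSCs and 35640104 to 47317028 in qHSCs. The limit of detection was set at 3 reads, which is 2.25 to 4.54 normalized counts depending on the library, and covers counting error only. A normalized count is the number of reads of a gene divided by the size factor of its library. Library hypHSC 1 had the fewest reads with a symbol, the largest share of reads on entries without a symbol (29.1%, against 10.8% to 20.1% in the other hypHSCs and 8.98% to 10.2% in qHSCs) and the largest mitochondrial share (12.8%, against 2.21% to 7.27% and 1.25% to 1.61%). Of 12 genes of quiescent stellate cells, all 12 were lower in hypHSCs, with summed levels of 7383 to 14530 normalized counts (14530 in hypHSC 1) against 422257 to 629366 in qHSCs, so the labelled cell type was marked by these genes only weakly in hypHSCs. Of 10 macrophage genes, 9 were higher in hypHSCs and none lower, with summed levels of 967994 to 1358511 against 3854 to 95378. In bulk RNA, fewer cells of a type and less RNA per cell cannot be told apart.

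All 8 genes were measured at higher levels in hypHSCs than in qHSCs. A gene was called a differentially expressed gene (DEG) when its absolute log2 fold change was at least 1 and its Benjamini-Hochberg adjusted p in limma at most 0.05. By this rule 17.8% of the 14630 genes tested were DEGs higher in hypHSCs and 21.7% lower, and 14.8% of 19325 were higher when no filter on low values was used. Of the 8 genes, 6 passed the filter of at least 10 normalized counts in at least 5 libraries, Krt19 only through its hypHSC libraries, and all 6 were higher. Krt7 and Cftr did not pass and were taken from the fit without the filter, in which both were DEGs higher in hypHSCs. The groups did not overlap for 6 of the 8 genes, against 13.8% of the 19325 genes with every hypHSC library above every qHSC library, and overlapped for Cdh1 and Cftr.

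Krt18, the type I partner of Krt8 in simple epithelia, was the most abundant of the genes per exon length. Its entry lies on chromosome 15 of GRCm39 from 101936651 to 101940461. It measured 6467 normalized counts in hypHSC 1, 1380.0 in hypHSC 2, 1461 in hypHSC 3, 2413 in hypHSC 4 and 1261 in hypHSC 5. In qHSC 1 to 5 it measured 253, 134, 202, 222 and 125. Every hypHSC library was above every qHSC library, and hypHSC 1 stood well above the other hypHSCs. It averaged 2596 ± 2212 in hypHSCs against 187 ± 55.7 in qHSCs (SD, n = 5 each), and the log2 fold change was 3.53 ± 0.43 (SE, limma adjusted p = 6.10e-05).

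Krt8, its type II partner, is the neighbour of Krt18, with 23873 bases between both entries (chromosome 15, 101905133 to 101912777). It measured 3381 normalized counts in hypHSC 1, 1019 in hypHSC 2, 975 in hypHSC 3, 653 in hypHSC 4 and 540.0 in hypHSC 5, against 159, 23.9, 102, 91.6 and 58.4 in qHSC 1 to 5. Again the groups did not overlap. The log2 fold change was 3.80 ± 0.58 (SE, limma adjusted p = 0.000267). Its counts are uncertain, because 665 of the 1436 stretches of 59 bases (the read length) in its exons, 46.3%, also occur elsewhere in the genome. Of these, 345 occur within the bounds of the pseudogene Krt8-ps and 320 within those of the protein-coding gene Nlrp4e, introns included. Whether they lie in exons of Nlrp4e was not examined. How such reads were assigned is not given in the sources used here. The corresponding share was 0.591% for Krt7 and 0 for the other 6 genes.

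Krt19, the smallest type I keratin and a usual marker of bile ducts, was close to absent from qHSCs (chromosome 11, 100031641 to 100036752). It measured 710.1 normalized counts in hypHSC 1, 137 in hypHSC 2, 202 in hypHSC 3, 67.1 in hypHSC 4 and 33.3 in hypHSC 5. In qHSCs it had 9 reads in qHSC 1 (8.15 normalized counts), 2 reads in qHSC 2 (1.7) and none in the other 3 libraries. The lowest hypHSC library thus stood above the highest qHSC library, and the log2 fold change was 6.16 ± 0.92 (SE, limma adjusted p = 0.000238). An antisense gene, Gm73150, covers 17.7% of its exon bases, and since the libraries were not stranded, reads of both cannot be told apart there.

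Krt7, the type II keratin that accompanies Krt19 in ducts, was much less abundant per exon length (chromosome 15, 101310283 to 101328194). It measured 257 normalized counts in hypHSC 1, 93.2 in hypHSC 2, 59.0 in hypHSC 3, 8.39 in hypHSC 4 and 39.3 in hypHSC 5. Among qHSCs only qHSC 4 held reads, 9 in number (7.7 normalized counts), close to the 8 reads of hypHSC 4. Its log2 fold change without the filter was 5.18 ± 0.96 (SE, limma adjusted p = 0.00121). The groups were thus separated for Krt7 by less than 1 normalized count, whereas they were far apart for Krt18 and Krt8.

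Epcam, the epithelial cell adhesion molecule of cholangiocytes and hepatic progenitor cells, had a different order among the hypHSCs (chromosome 17, 87943407 to 87958555). It measured 499.9 normalized counts in hypHSC 1 and 186 in hypHSC 5, and 41.4, 28.3 and 39.9 in hypHSC 2, 3 and 4. In qHSCs 12 reads were found in qHSC 1 (10.9 normalized counts) and none in the other 4 libraries. The groups did not overlap. The log2 fold change was 5.72 ± 0.999 (SE, limma adjusted p = 0.000714).

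Cdh1, the classical cadherin of epithelial adherens junctions, fell into high and low libraries within the hypHSC group (chromosome 8, 107329982 to 107396879). It measured 447 normalized counts in hypHSC 1, 134 in hypHSC 2 and 248 in hypHSC 3, but 7.34 in hypHSC 4 and 16.6 in hypHSC 5. In qHSCs it measured 10.2 in qHSC 2 and 4.72 in qHSC 3, and no read in the other 3 libraries. The groups overlapped, since hypHSC 4 lay under qHSC 2. The log2 fold change was 5.01 ± 1.21 (SE, limma adjusted p = 0.00556), and in hypHSC 3, 4 and 5 alone (12 weeks of diet) against all qHSCs it was 3.85, no longer a DEG (limma adjusted p = 0.0654).

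Sox9 was present in every library (chromosome 11, 112673036 to 112678583). It measured 1244 normalized counts in hypHSC 1, 245 in hypHSC 2, 146 in hypHSC 3, 361 in hypHSC 4 and 505 in hypHSC 5, against 37.1, 28.1, 4.72, 21.4 and 18.7 in qHSC 1 to 5. As with Epcam, hypHSC 5 was the second highest. It averaged 500.3 ± 437 against 22.0 ± 12.0 (SD, n = 5 each), and the log2 fold change was 4.30 ± 0.65 (SE, limma adjusted p = 0.000260). The antisense gene BC006965 covers 13.0% of the Sox9 exon bases.

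Cftr was detected only in hypHSCs and not in all of them (chromosome 6, 18170685 to 18322769). It measured 163 normalized counts in hypHSC 1, 43.5 in hypHSC 2, 83.2 in hypHSC 3 and 43.0 in hypHSC 4, with 121, 42, 100 and 41 reads behind these values. No read was found in hypHSC 5 or in any of the 5 qHSC libraries, so the groups overlapped at 0. The hypHSC mean was at least 26.7-fold higher than the mean floor of the qHSC libraries (3 reads per library), or at least 17.0-fold without hypHSC 1. In the fit without the filter Cftr was a DEG (limma adjusted p = 0.00546), which it no longer was with hypHSC 3, 4 and 5 alone (limma adjusted p = 0.0564).

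**Figure D1:**
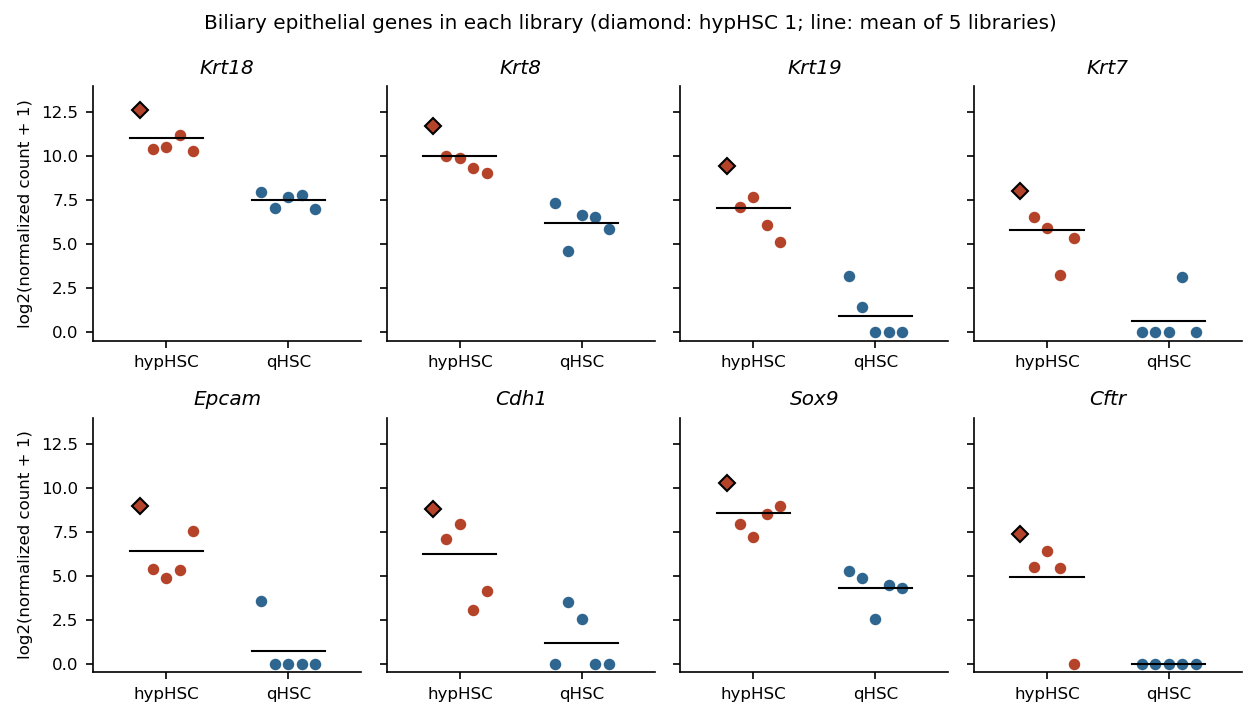
Level of each of the 8 genes in the 10 libraries, as log2(normalized count + 1) on the vertical axis, with hypHSCs in red and qHSCs in blue. Each point is 1 library, the diamond is hypHSC 1 and the line is the mean of the 5 log2 values; hypHSC 1 is the highest point in all 8 panels, and the groups overlap for Cdh1 and Cftr.

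An exact two-sided permutation test over all arrangements of 5 libraries against 5 gave p = 0.00794, the smallest that this design allows, for 6 of the genes, 0.0159 for Cdh1 and 0.0476 for Cftr. When hypHSC 1 was left out, the exact p over the arrangements of 4 libraries against 5 was 0.00794 for Krt8, Krt18, Krt19 and Sox9, 0.0159 for Krt7 and Epcam, 0.0238 for Cdh1 and 0.0476 for Cftr. All 8 genes were still DEGs without hypHSC 1, with log2 fold changes from 3.12 (Krt18) to 5.56 (Krt19), while 16% of the genes tested were then DEGs higher in hypHSCs. Krt7, Krt19, Cdh1 and Cftr came from the fit without the filter in that case. The size of the fold is least certain for genes that were near 0 in qHSCs: with 10 in place of 1 added before the logarithm, the log2 fold change was 2.65 for Krt7, 3.69 for Krt19, 3.10 for Epcam, 2.94 for Cdh1 and 2.43 for Cftr, and all 5 were still DEGs.

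**Figure D2:**
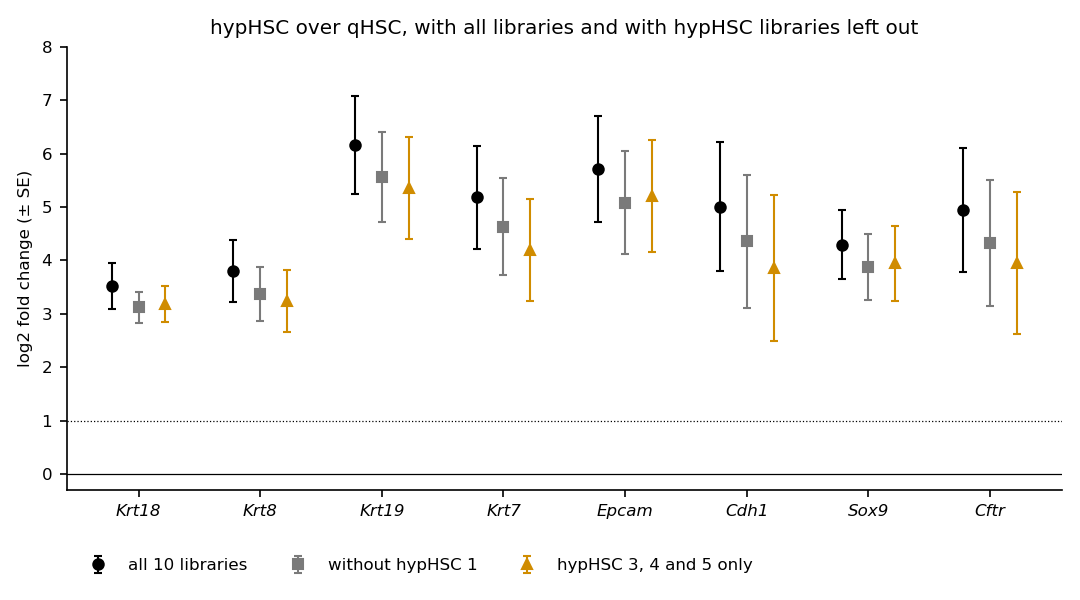
Log2 fold change of each gene, hypHSCs over qHSCs, with the standard error of limma as bars, for all 10 libraries (black circles), without hypHSC 1 (grey squares) and with hypHSC 3, 4 and 5 only (orange triangles). The dotted line marks a log2 fold change of 1; all 24 estimates lie above it, and those of Cdh1 and Cftr from hypHSC 3, 4 and 5 are the only ones with an adjusted p over 0.05.

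The values of hypHSC 1 are given as a description, since this library was singled out and the genes were chosen with earlier results of these data known. Library hypHSC 1 was the highest of the 10 libraries for 8 of the 8 genes, while it was the highest for 9.69% of the genes tested. It was at least 2 times as high as every other library for 6 of the 8 genes, all but Cdh1 (1.81 times the next library) and Cftr (1.96 times), against 0.868% of the genes tested. Both shares are over the 14630 genes that passed the filter, which leave out Krt7 and Cftr. Of the 8 genes 6 were tested, and hypHSC 1 was the highest library for all 6. Both counts, 8 and 6, were the same on the FPKM scale and after scaling the libraries to equal totals, comparisons that were added after the data had been seen. Relative to the mean of the other 4 hypHSC libraries, hypHSC 1 was 3.84 times as high for Cftr, the lowest such ratio, and 6.77 times as high for Epcam, the highest. It held from 49.0% (Cftr) to 62.8% (Epcam) of the summed hypHSC level of each gene. The part of the mitochondrial share, the depth and the share of reads without a symbol of this library in these values was not tested.

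The 8 genes together summed to 13169 normalized counts in hypHSC 1, 3092 in hypHSC 2, 3202 in hypHSC 3, 3592 in hypHSC 4 and 2582 in hypHSC 5. In qHSCs the sums ran from 198 to 468. Without hypHSC 1 the hypHSC sums were therefore close to each other, and each was above every qHSC sum. In recovered reads these sums were 9773 in hypHSC 1, 1707 to 3851 in the other hypHSCs and 232 to 517 in qHSCs. Krt8 and Krt18 made up 69.8% to 85.3% of the sum in hypHSCs and at least 79.7% in qHSCs, so the sums mainly reflected this pair. Other genes differed more among hypHSC 2 to 5. Krt19 measured 33.3 to 202 normalized counts there, Cdh1 7.34 to 248 and Cftr 0 to 83.2.

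Below hypHSC 1 the genes did not keep a common order of libraries. The second highest library was hypHSC 3 for 3 genes (Krt19, Cdh1 and Cftr), hypHSC 2 for 2 (Krt7 and Krt8), hypHSC 5 for 2 (Epcam and Sox9) and hypHSC 4 for 1 (Krt18). In hypHSC 5, the lowest of the 5 hypHSCs for Krt8, Krt18, Krt19 and Cftr, Cftr had no read while Epcam and Sox9 were second only to hypHSC 1. In hypHSC 4, Krt18 stood at 2413 normalized counts while Cdh1 and Krt7 had 7 and 8 reads. The genes thus shared their highest library but not their profile over the remaining hypHSC libraries.

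Per length of exon, the levels were compared as FPKM, the reads per kilobase of exon, scaled by the reads with a symbol in the library. The mean FPKM in hypHSCs was 43.4 ± 37.5 for Krt18, 16.4 ± 14.7 for Krt8, 3.06 ± 3.63 for Krt19, 2.82 ± 2.54 for Sox9, 1.45 ± 1.88 for Epcam, 0.929 ± 0.986 for Cdh1, 0.317 ± 0.338 for Krt7 and 0.214 ± 0.197 for Cftr (SD, n = 5). Neighbours in this order kept it in all 5 hypHSC libraries for Krt18 over Krt8, Krt8 over Krt19 and Sox9 over Epcam. Krt19 was above Sox9, Epcam above Cdh1 and Krt7 above Cftr in only 3 of 5 libraries, and Cdh1 above Krt7 in 4 of 5, so these neighbours were not separated beyond the spread between libraries. The FPKM ratio of Krt18 to its partner Krt8 was 2.61, 1.85, 2.04, 5.04 and 3.18 in hypHSC 1 to 5 and 2.16 to 7.64 in qHSCs, a range that holds the hypHSC ratios except those of hypHSC 2 and 3. Both this ratio and the place of Krt8 in the order are uncertain. Of the Krt8 exon stretches 46.3% also occur elsewhere, and how such reads were assigned is not given. Krt19 reached 8.51, 7.67 and 10.7 FPKM per 100 FPKM of Krt18 in hypHSC 1, 2 and 3, but 2.16 and 2.04 in hypHSC 4 and 5.

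Beyond the 4 keratins above, the table held 51 other keratin genes, of which 32 had no read in any library. Of the rest, 9 reached 20 normalized counts somewhere, and of the 2 that passed the filter 1, Krt23, was a DEG, having passed only through its hypHSC libraries. Krt23, a type I keratin of simple epithelia, measured 604, 120, 228, 79.7 and 75.6 normalized counts in hypHSC 1 to 5 and 1.81 or less in every qHSC library (log2 fold change 7.02 ± 0.68, SE, limma adjusted p = 1.18e-05). Krt17, otherwise a keratin of basal and reactive epithelium, had 131 normalized counts in hypHSC 1, 13.3 in hypHSC 3, 65.0 in hypHSC 5 and none elsewhere. Krt80 and Krt12 were highest in hypHSC 2 (125 and 43.5 normalized counts), as was Krt20 (73.5), a keratin of gut epithelium. Krt10, a keratin of the upper epidermis, measured 14.8 to 80.2 in hypHSCs and 54.8 to 88.4 in qHSCs and was not called. Krt222, Krt79 and Krt28 stayed at or under 28.3 in every library. The epidermal keratins Krt1, Krt5 and Krt15 were without a read.

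The genes with the library profile nearest to that of the 8 were sought among 14839 genes with at least 50 normalized counts in a library. The profile of a gene was the share of its summed level in each library, and the distance to the mean profile of the 8 was the summed absolute difference of these shares divided by 2 (0 for the same profile, 1 for no shared library). In the mean profile hypHSC 1 held 52.7%, the other hypHSCs 8.35% to 14.7% each and each qHSC library less than 1%. Among genes outside the lists used here the nearest were Ankrd1 (distance 0.0654), AV064505, Ddit4l, Krt23, Ppl, Fxyd3, Pdzk1ip1, ccdc198, Upp1 and Rassf9 (0.108), while the median distance was 0.551. Ankrd1, an ankyrin repeat protein known as a target of YAP, measured 2121, 552, 488, 453 and 429.5 normalized counts in hypHSC 1 to 5 and 5.13 to 75.6 in qHSCs. Ddit4l, AV064505 and Rassf9 had no read in any qHSC library. Ppl encodes periplakin, a protein of the cornified envelope and of desmosomes, and Fxyd3 a regulator of the sodium pump in epithelia. These distances describe 10 libraries and rest mostly on hypHSC 1, and no test was made of them. The 8 genes themselves lay at 0.0660 (Krt8) to 0.237 (Epcam).

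**Figure D3:**
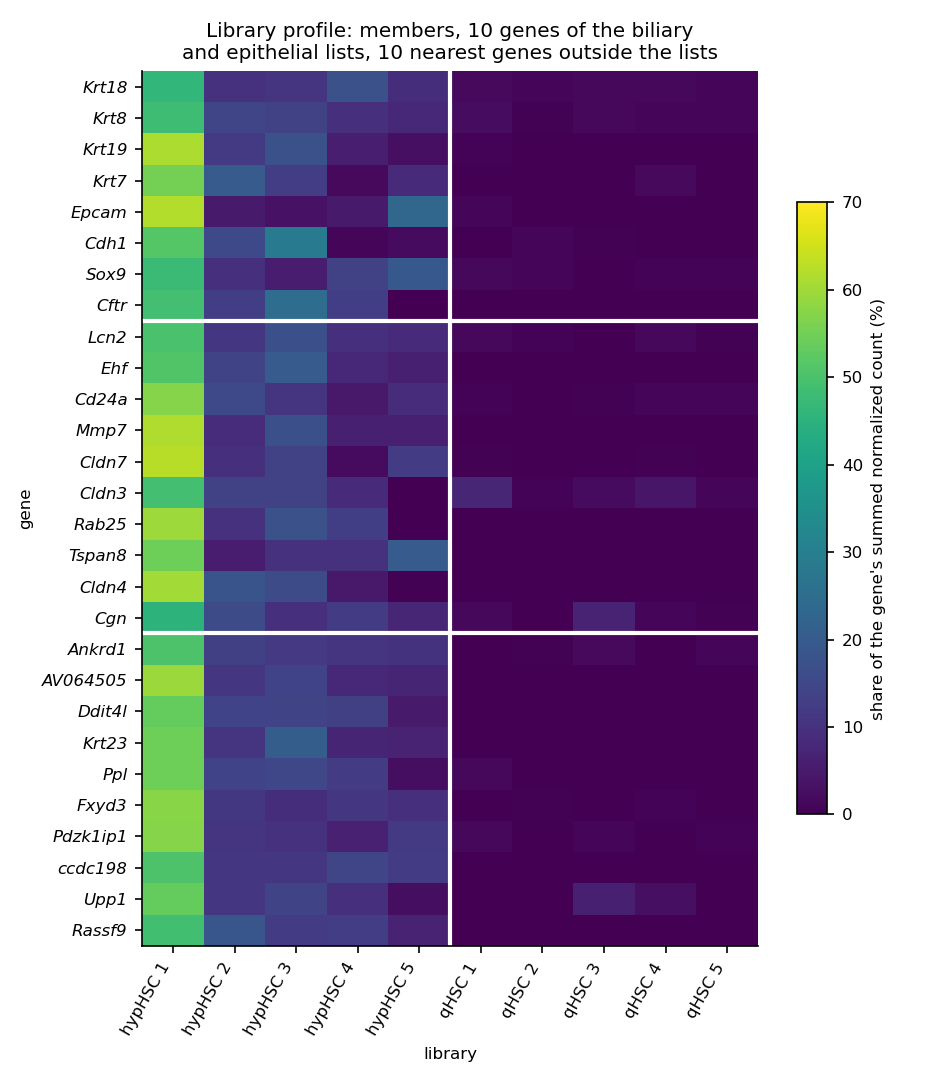
Share of each gene's summed normalized count found in each library, in percent by colour, with libraries as columns and genes as rows. The upper block holds the 8 genes and the lower block the 10 nearest genes outside the lists. The middle block holds 10 genes of the biliary and epithelial lists, picked among those with a near profile. The column of hypHSC 1 is the brightest in every row, and the second brightest column changes from row to row. In the middle and lower blocks this follows from how the genes were picked. Listed genes with another highest library, such as Spp1, Slc51a and Fgfr2, are not shown.

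Other genes of bile duct epithelium were taken from lists of general knowledge. Counts in this and the following lists stand beside 17.8% of all genes tested that were higher and 21.7% that were lower. Without the filter 14.8% were higher. Of 10 surface and secreted genes of cholangiocytes and reactive ductules, 7 passed the filter, 5 were DEGs higher in hypHSCs and 1 lower. Of these 5, Tspan8 and Mmp7 passed only through their hypHSC libraries. Without the filter 10 were tested, 6 were higher and 1 lower, with a median log2 fold change of 4.67. Tspan8, a tetraspanin of epithelia, measured 2796, 279.5, 509, 510 and 1036 normalized counts in hypHSC 1 to 5 and Mmp7, matrilysin, 1335, 195, 367, 132 and 133, both without a read in qHSCs. Cd24a and Lcn2 (lipocalin 2) were also highest in hypHSC 1, at 2183 and 1474. Spp1 (osteopontin), which macrophages make too, was the exception among the higher ones, with 278620.0 in hypHSC 1 under the 335921 of hypHSC 5. Fgfr2 was lower, at 7.56 to 255 in hypHSCs against 3952 to 5229 in qHSCs, and Bicc1 was not called. Prom1 and Vtcn1 did not pass the filter and had no read in qHSCs, with 160.3 and 47.2 in hypHSC 1.

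Of 9 transcription factors of biliary and simple epithelium, 3 passed the filter, of which 2, Ehf among them, were higher and 1, Sox4, lower, and without the filter 9 were tested, 4 higher and 1 lower. Ehf, an ETS factor of epithelia that passed only through its hypHSC libraries, measured 943, 268, 373, 151 and 112 normalized counts in hypHSC 1 to 5 and 4.28 or less in qHSCs. Sox4 measured 2019 in hypHSC 1 and 501 to 616 in the other hypHSCs, against 1484 to 3315. Elf3 (260.1 in hypHSC 1), Foxa2 (53.9), Grhl2 (52.5), Onecut2 (45.8), Klf5 (41.8) and Onecut1 (28.3) lay under the filter and were each highest in hypHSC 1. No read was found for Elf3 in hypHSC 4 and 5, Foxa2 in hypHSC 2 and 5, or Grhl2 in hypHSC 4. Onecut1 had none in hypHSC 2, 3 and 5. Foxa2, Grhl2 and Onecut1 reached 11.8, 9.41 and 7.67 in a qHSC library. The groups overlapped for these and Elf3, but not for Onecut2 and Klf5. hypHSC 1 was thus the highest library for 8 of the 9. Of the 3 that passed the filter it was the highest for 2, against 9.69% of all genes tested.

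Of 11 biliary secretion, transport and cilium genes 6 passed the filter, 1 was higher and 3 were lower, with a median log2 fold change of -1.25. Among all genes tested 17.8% were higher, so that 1 of 6 is near that share, and 21.7% were lower. Without the filter all 11 were tested, 4 were higher and 3 lower, and the median was 1.46, so the sign of the median turned with the filter. Slc51a, a subunit of the basolateral bile acid exporter, was higher at 268 to 352 normalized counts against 92.1 to 149, with hypHSC 1 (344) inside the range of the others. Ano1, Pkd1 and Pkd2, a calcium-activated chloride channel and both polycystins, were lower, Ano1 at 63.5 to 314 against 3388 to 6310. Slc4a2, the chloride-bicarbonate exchanger that works beside Cftr, measured 13.6 to 621 against 239.9 to 359 and Aqp1 2.1 to 111 against 12.7 to 56.5, and neither was called. Sctr (the secretin receptor), Pkhd1 (fibrocystin), Muc1 and Slc10a2 did not pass the filter, with 56.6, 369, 435 and 36.4 in hypHSC 1 and 9.45 or less in every qHSC library, and Slc51b had no read in hypHSC 1.

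Of 15 genes of epithelial junctions, membrane proteases and splicing, 8 passed the filter, 3 were higher (Cldn4, Ocln and Cgn) and 1, Spint2, lower, with a median log2 fold change of 1.10. Without the filter 15 were tested, 7 were higher and 1 lower, with a median of 3.25. With hypHSCs at 12 weeks only, 5 were tested, 0 were higher and 1 lower, with a median of -0.40. The filter still asked for 5 libraries there, which Cldn4, Ocln and Cgn did not reach. They could not be called, so that count and median do not address them. Cldn4, a tight junction claudin, measured 4122 normalized counts in hypHSC 1, 1244 in hypHSC 2, 1091 in hypHSC 3, 335 in hypHSC 4 and 33.3 in hypHSC 5 and had no read in qHSCs, which is at least 548-fold higher on the mean, or at least 271-fold without hypHSC 1. It passed the filter only through its hypHSC libraries. Ocln (occludin) and Cgn (cingulin) reached 344 and 221 in hypHSC 1. Cldn3, by contrast, measured 1431 in hypHSC 1 but 0 in hypHSC 5, and 18.7 to 216 in qHSCs, and was not called. The call of Spint2 was lost in 8 of 22 alternative settings, among them DESeq2 and edgeR, with adjusted p from 0.0536 to 0.0874. F11r (3304 in hypHSC 1), Esrp2 and Tjp3 were not called. Dsp (desmoplakin, 462 in hypHSC 1), Rab25 (350.4), Ap1m2 (234), Cldn7 (187), Esrp1 (136), Spint1 (119) and St14 (93.0) lay under the filter. hypHSC 1 was the highest library for 12 of the 15, and for 6 of the 8 that passed the filter, against 9.69% of all genes tested. Without hypHSC 1, 7 were tested, 2 higher and 1 lower. Cldn4 missed the filter in that case and was not among the 7.

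Cdh1 is repressed in mesenchymal cells by factors of the Snail, Zeb and Twist families. Those of the Snail and Zeb families bind the letters CACCTG (or CAGGTG on the other strand). Of 9 genes listed for this axis and for mesenchymal filaments and cadherins, all were tested, 1 was higher and 6 were lower, with a median log2 fold change of -2.85. Cdh2 (N-cadherin) measured 357, 199.8, 116, 119.6 and 25.7 normalized counts in hypHSC 1 to 5 and 3446 to 5334 in qHSCs (log2 fold change -5.17 ± 0.55, SE, limma adjusted p = 2.25e-05), so that both classical cadherins moved in opposite directions. The repressors were lower too, Snai1 at 0 to 25.6 against 65.2 to 240.3, Snai2 at 66.6 to 219.6 against 749 to 1165, Zeb1 at 168 to 233 against 798 to 1530.3 and Twist1 at 0 to 4.04 against 10.9 to 30.7. Zeb2, the repressor with the highest counts in both groups, was also lower, at 4878 to 8042 against 10425 to 12738 without overlap. It was not called, as its log2 fold change of -0.96 missed the limit of 1 (limma adjusted p = 0.00113). Cdh11 was not called either. Desmin (Des) was lower and vimentin (Vim) higher, at 28419.5 to 59324 against 7975 to 12993. Within the hypHSCs, Cdh1 was lowest in hypHSC 4 and 5, the libraries in which Snai1 had no read.

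**Figure D4:**
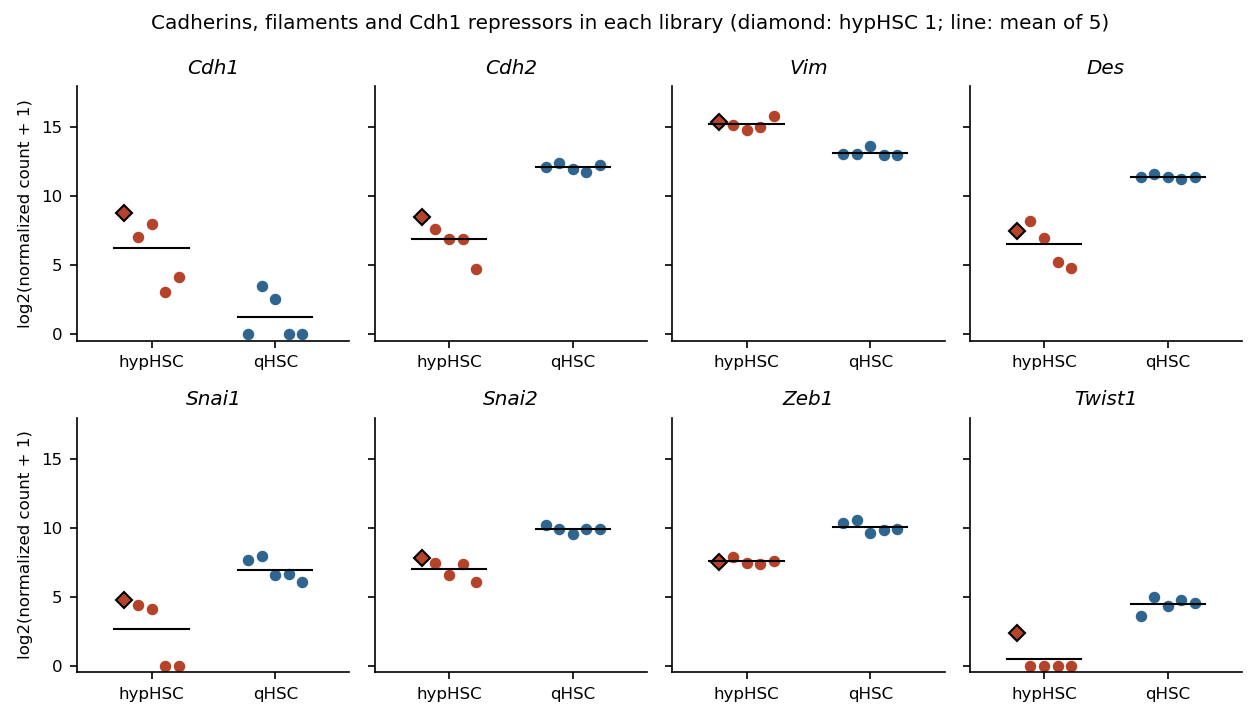
Level of Cdh1, Cdh2, the intermediate filament genes Vim and Des and the Cdh1 repressors Snai1, Snai2, Zeb1 and Twist1 in the 10 libraries, as log2(normalized count + 1). Zeb2 is not shown. Points are libraries, the diamond is hypHSC 1 and lines are means of 5; Cdh1 and Vim are higher in hypHSCs and the other 6 genes lower, with groups that overlap for Cdh1 only.

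The promoters of Cdh1, of Krt18 and of its neighbour Krt8 are shown as a Cdh1 repressor site pair, a single match and a promoter of the same group without one. They are the stretches free of annotated exons within 200 bases before the start of the canonical transcript (GENCODE vM39, GRCm39), written 5′ to 3′ on the strand of the gene, with CACCTG or CAGGTG in capitals on either strand. Cdh1 lies on the plus strand (chr8:107329783-107329940), Krt18 on the plus strand (chr15:101936415-101936614) and Krt8 on the minus strand (chr15:101912918-101913117).
Cdh1: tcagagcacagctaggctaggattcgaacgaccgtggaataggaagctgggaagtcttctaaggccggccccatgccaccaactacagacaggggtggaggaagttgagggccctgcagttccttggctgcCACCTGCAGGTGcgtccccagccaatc
Krt18: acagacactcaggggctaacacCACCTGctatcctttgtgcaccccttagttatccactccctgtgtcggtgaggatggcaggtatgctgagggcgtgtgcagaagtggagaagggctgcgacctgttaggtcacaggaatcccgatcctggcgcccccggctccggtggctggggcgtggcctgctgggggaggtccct
Krt8: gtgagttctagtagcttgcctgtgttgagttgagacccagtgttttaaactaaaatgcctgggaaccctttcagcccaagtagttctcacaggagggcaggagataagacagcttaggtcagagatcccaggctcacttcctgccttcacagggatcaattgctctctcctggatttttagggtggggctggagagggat
In Cdh1 the 2 matches printed abut each other. The printed Cdh1 stretch ends 42 bases before the start, and the whole window held 3 matches. Counted over the whole windows of 200 bases, 4 of the 8 genes (Cdh1, Epcam, Krt7 and Krt18) held the letters, as did 14.3% of 21770 promoters. A match describes the letters only.

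Of 10 genes upstream of or beside Sox9 in biliary cells (Notch and YAP signalling), all were tested, 1 was higher and 5 were lower, with a median log2 fold change of -1.53. Among all genes tested 17.8% were higher and 21.7% lower. Notch1, its ligand Jag1, Yap1 and the YAP targets Ccn1 and Ccn2 were lower, Yap1 at 58.8 to 265 normalized counts against 967 to 1316 and Ccn1 at 809 to 4945 against 15774 to 43687. Notch2 was higher, a call lost in 6 of 22 alternative settings. Hes1, Hey1, Rbpj and Wwtr1 were not called. Ankrd1, the YAP target named above for its profile, thus differed in direction from Ccn1 and Ccn2, and Sox9 from Notch1 and Yap1.

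Krt8 and Krt18 are also made by hepatocytes, and Krt8, Krt18 and Krt19 by mesothelial cells, so the markers of these cells are given beside them. Of 10 hepatocyte genes all were tested and 0 were called in limma, DESeq2 or edgeR (0 of them at an unadjusted p under 0.05 in limma, and 1 called lower after scaling to equal totals), with summed levels of 36166, 30879, 13703, 56287 and 111272 normalized counts in hypHSC 1 to 5 and 25568 to 90617 in qHSCs. hypHSC 1 was the highest library for 0 of the 10 hepatocyte genes, and hypHSC 5, with the highest sum, was the lowest hypHSC for Krt8 and Krt18. Of 9 mesothelial genes 3 were tested and 2 were higher, Gpm6a (330.1 in hypHSC 1) and Lrrn4, whose call was lost in 5 of 22 alternative settings. Gpm6a passed the filter only through its hypHSC libraries, and without the filter 9 were tested, 3 higher and 1 lower. Wt1 was tested and not called, at 194 in hypHSC 1 and 93.1 to 163 in the other hypHSCs against 54.8 to 134, and Msln (mesothelin) lay under the filter, at 88.9 in hypHSC 1, 0 to 31.5 in the other hypHSCs and 1.7 or less in qHSCs. The mesothelial sums were 335 to 862 (794 in hypHSC 1) against 144 to 265, and Upk3b, Upk1b, Muc16, Bnc1 and Cldn15 had no read in hypHSC 1.

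Of 8 portal fibroblast genes, which sit beside bile ducts, 6 were tested and 4 were higher (Fbln2, Gli1, Cd34 and Mfap4), Gli1 having passed the filter only through its hypHSC libraries. With hypHSCs at 12 weeks only, 4 were tested, 0 were higher and 2 lower, and Cd34 (limma adjusted p = 0.0515) and Mfap4 (0.0789) were not called. Fbln2 and Gli1 missed the filter of 5 libraries there and could not be called, so that count does not address them. In hypHSC 3, 4 and 5 Gli1 measured 50.7 to 87.1 normalized counts, against 2.56 to 9.41 in qHSCs. Fbln2 measured 43.9 to 64.9 against 0.75 to 16.2. The sums of the list were 2858, 1719.5, 1148, 724 and 295 in hypHSC 1 to 5 and 299 to 599 in qHSCs. hypHSC 1 was the highest library for 6 of these 8 genes, and for 5 of the 6 tested, against 9.69% of all genes tested. Of 9 sinusoidal endothelial genes 8 were tested, 4 higher and 1 lower (sums 8065 to 12457 against 1127 to 3041), and the call of 1 of the 4, Stab2, was lost in 12 of 22 alternative settings, DESeq2 and edgeR among them, with adjusted p from 0.0579 to 0.143. Of 7 neutrophil genes 3 were tested and 3 higher (sums 1462 to 5911 against 5.43 to 112), of which S100a9 and Retnlg passed the filter only through their hypHSC libraries, and 4 of 7 were higher without the filter. Of 8 T, NK and B cell genes 3 were tested and 0 called in limma, DESeq2 or edgeR, 0 at an unadjusted p under 0.05 (sums 113 to 689 against 10.2 to 199.98). In limma 1 of 8 was higher without the filter and 1 of 3 without hypHSC 2. The former, Klrb1c, a receptor of NK cells named here after its values were seen, measured 8.32 to 139 normalized counts in hypHSCs and 0.75 or less in qHSCs. hypHSC 1 was the highest library for 1 of the endothelial, 1 of the neutrophil, 2 of the lymphocyte, 3 of the macrophage and 3 of the mesothelial genes. Among those tested these counts were 0, 0, 1, 3 and 2 in turn. The part of cells other than stellate cells in the levels of the 8 genes was not tested.

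**Figure D5:**
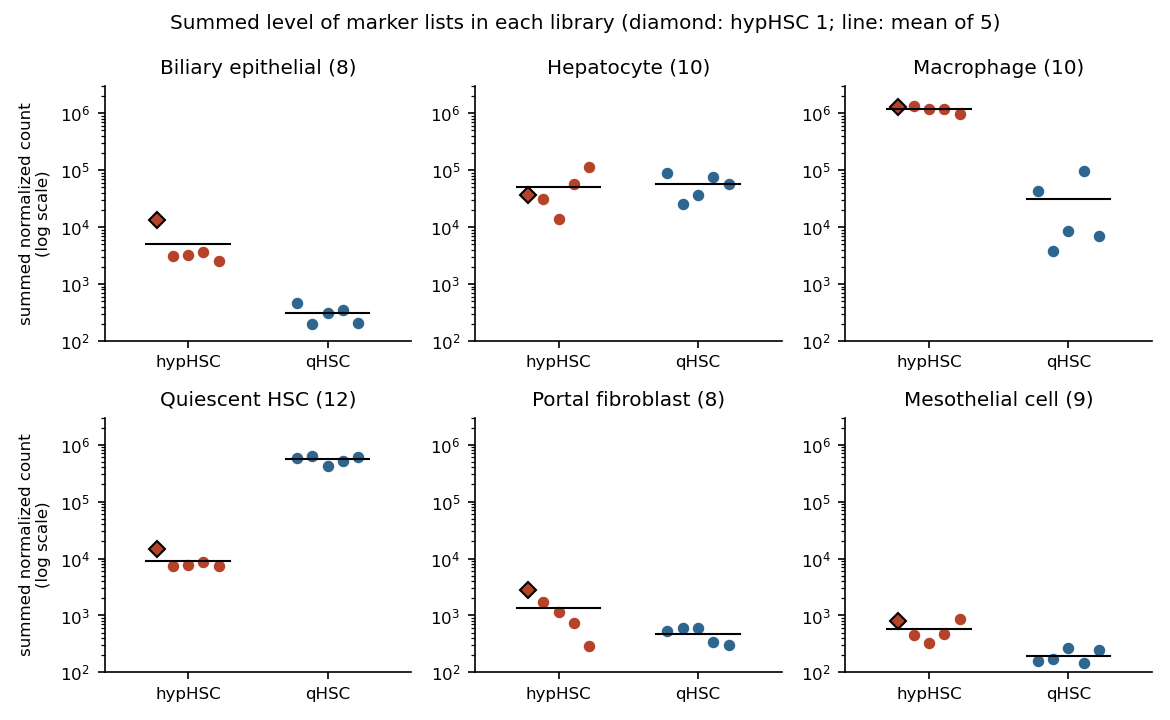
Summed normalized count of 6 marker lists in each library, on a logarithmic axis, with hypHSCs in red and qHSCs in blue; the number of genes in each list is in brackets. Points are libraries, the diamond is hypHSC 1 and lines are arithmetic means of 5; hypHSC 1 stands highest for the biliary epithelial and portal fibroblast lists over all libraries, and the hepatocyte sums of both groups overlap.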

How the data were processed

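RNA-seq libraries of 5 hypHSC and 5 qHSC preparations, made with a low-input kit that does not mark strand and sequenced as pairs of 59 bases, were used. The authors mapped reads with STAR (2.7.5a) to mm39 and counted them per gene with featureCounts (Subread 1.5.0). The deposited unit is a signal, the gene count divided by the DESeq2 size factor of its library. Each column was turned back into whole reads (100% of values within 0.05 of a whole number), and recomputed size factors were 0.661 to 1.20 in hypHSCs and 1.10 to 1.33 in qHSCs. Depth is given in the report. The sources used here do not say which mouse gave which library, so n counts preparations, and p-values measure the spread between these. No library pair agreed within sampling noise (chi-square per gene of 55.8 or more).

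Groups were compared on log2(normalized count + 1) by limma 3.58.1 (trend, R 4.3.3) for every gene that reached 10 normalized counts in 5 or more libraries, with Benjamini-Hochberg adjustment. Fold changes are on that scale and understate changes of low genes. Alternatives were other pseudocounts (0.5, 10), other filters, other scalings, DESeq2 1.42.0 and edgeR 4.0.16 on the recovered reads, the replicate number as a block, hypHSCs at 12 weeks of diet only, each library left out, and, added after seeing the data, the absence of both hypHSC 1 and hypHSC 5. Fits were tested on simulated counts. FPKM and sequence stretches used GENCODE vM39 exons on GRCm39, and coordinates of genes are those deposited. Named were the 8 genes, listed epithelial genes with at least 20 normalized counts in hypHSC 1, genes needed to give small counts, keratins of at least 20 normalized counts, and the 10 nearest profiles; some listed genes are not reported here, and Krt1, Krt5 and Krt15 were named after their values had been seen. The 8 genes and all lists were chosen with earlier results of these data known.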

Additional observations from a re-analysis of the deposited data

Results flagged for a closer look

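Each gene was checked in each group of 5 libraries for a highest or lowest log2 value whose gap to the nearest other library, divided by the range of the group, exceeded Dixon's critical value. Of 15 groups with any spread, 3 met this. Chance gives about 1 in 20 where values have no ties, a rate that does not hold for these 3, which rest on libraries without a read: the ratio is 1 whatever the value of a library that alone holds reads. Krt7 in qHSC 4 (gap ratio 1) and Epcam in qHSC 1 (gap ratio 1) were the only qHSC libraries with reads of these genes, 9 and 12 in number. Cftr in hypHSC 5 (gap ratio 0.742) was the only hypHSC library without a read of Cftr. hypHSC 1, the highest library for all 8 genes, did not meet it for any of them.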

How the results depend on the processing

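With all 10 libraries 5779 of 14630 genes were DEGs, 2602 higher and 3177 lower in hypHSCs, and the alternatives gave 4382 to 6260. All 8 genes were DEGs higher in hypHSCs in every alternative except that Cdh1 (log2 fold change 3.85) and Cftr (3.95) were not with hypHSCs at 12 weeks only, and that only 4 of the 8 could be tested at a mean of at least 100 normalized counts, 4 of which were DEGs. With each library left out once there were 5002 to 5673 DEGs, of which 2267 to 2518 higher and 2581 to 3270 lower. All 8 genes were DEGs each time, those that did not pass the filter in the fit without it. Scaling to equal totals moved the split to 2013 higher and 4243 lower and the median log2 fold change of all genes tested from -0.20 to -0.55, and no gene of the 8 fell below 3.17 there. The replicate numbers did not pair the libraries (correlations of 0.00815 to 0.129, and only hypHSC 5 correlated best with its own number). With the replicate block 5786 genes were DEGs, 6 of the 8 among them. Krt7 and Cftr were DEGs in the fit without the filter. Values under 3 reads, most of those of Krt7, Krt19, Epcam, Cdh1 and Cftr in qHSCs, are limited by depth.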
